A study of Mus musculus with 16 samples.

Results

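The comparison described here set the livers of 4 male mice with the CerS2 H/A allele against the livers of 4 male mice of the line labelled delneo, 8 of the 16 arrays of the series. Members were chosen by the condition given in the labels, HA or delneo, and every gene that the arrays measured was compared between them. The study asked, by its title, how the catalytic activity of ceramide synthase 2 bears on liver transcripts of lipid metabolism and cell division. The delneo line carries the publication label CerS2 Flox and serves as a second control beside WT. The HA changes are given here as differences that use no WT array. All 16 arrays nevertheless enter the spread behind the p-values, among them 4 of a further line labelled delHox. WT values stand beside these differences where they are needed.

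The HA group holds 4 livers labelled CerS2 H/A, the delneo group 4 livers labelled CerS2 Flox and the WT group 4 livers labelled CerS2 WT. All were male, 6 weeks old and on a mixed background of 75% C57BL/6 and 25% SV129, and RNA came from 25 mg of liver. The labels name no Cre, no treatment and no further allele, and they do not describe the H/A or Flox allele, its zygosity or whether the animals were littermates. Each line is 1 allele on a mixed background. Nothing states how many litters gave the animals, so p-values measure the spread between these 4 livers of each line.

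Ceramide synthases join a fatty acid to a sphingoid base, and each of the mammalian enzymes prefers acyl chains of a certain length. CerS2 is the main ceramide synthase of hepatocytes and makes ceramides with very long acyl chains, which go on to sphingomyelin and glycosphingolipids of membranes. Mice that lack CerS2 activity are known for liver disease with hepatocyte turnover and nodules. No probe could be paired with the name Cers2, so the transcript of the mutated gene itself is not analysed here.

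Values are normalised signals on the log2 scale, so a difference of 1 is a 2-fold change, and each difference is HA minus delneo unless another is named. A gene was called, and is said to have risen or fallen, when its limma p, adjusted by the Benjamini-Hochberg method across the 31480 genes tested, was under 0.05. The share of spots well above background was 56.1% to 65.2% on HA arrays and 55.7% to 63.5% on delneo arrays. Raw signal was higher on the HA arrays before scaling, with a 75th percentile of 109.3 to 173.1 intensity units, against 86.0 to 111.6 on delneo arrays. Hepatocyte markers, the check of the tissue label, averaged 14.33 to 14.63 on HA arrays and 14.40 to 14.47 on delneo arrays.

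Delneo replicate 1 stood apart from the other 3 delneo livers in genes that differ between male and female liver. Hsd3b5, a male-biased steroid ketoreductase, read 6.09 on that array and 11.27 to 11.78 on the other 3. Cyp2b13, a female-biased cytochrome P450, read 8.33 there and 1.24 to 1.29 on the other 3. The Y-linked genes Ddx3y, Eif2s3y, Kdm5d and Uty were above background on all 8 arrays. Ddx3y read 7.98 on delneo replicate 1 and 8.10 to 8.49 on the other 7, and Uty 6.11 against 6.38 to 7.10, so both were lowest there. Eif2s3y (7.89) and Kdm5d (5.79) lay within the range of the other 7, and Xist was above background on 0 of the 8. Overlap was counted where a delneo array was above the lowest HA array of a risen gene or below the highest of a fallen one. Over the 10458 genes called, it held for 4.35% on delneo replicate 1 and for 2.90% to 6.26% on the other 3. The calls favour genes whose groups separate and used this array, so they partly set that low share. By the sign of the difference over all 31480 genes tested, the share was 31.6%, against 33.7% to 42.3% for the other 3. The results of the sex-biased lists are given with and without delneo replicate 1.

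Liver transcripts of the HA and delneo groups differed widely. Of 31480 genes tested, 10458 (33.2%) were called, 5017 (15.9%) higher and 5441 (17.3%) lower in HA livers. Large changes were mostly rises, since 1493 genes rose and 318 fell by more than 2-fold. Of these, 893 rises and 146 falls were in the dimmer 50% of genes, and 600 and 172 in the brighter 50%. Among all calls of the brighter 50%, whatever their size, 3268 genes rose and 3913 fell. Among the 17662 genes with a symbol, 3550 rose and 2898 fell, 1085 and 191 of them by more than 2-fold. On the first principal component of the 8 arrays, which held 49.4% of the variance, HA livers lay between -82.2 and -27.7 and delneo livers between 43.7 and 61.7. On the second, which held 13.4%, delneo replicate 1 lay at 43.1 and delneo replicates 2 to 4 between -13 and -10. HA livers lay between -49.1 and 33.6 on it. Correlations were 0.965 to 0.983 within HA, 0.971 to 0.985 within delneo and 0.926 to 0.963 between the groups. The values of the groups did not overlap for 11212 genes (35.6%).

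The median difference over all genes was -0.14, and without scaling between arrays it was 0.31, with 10393 genes higher and 117 lower, so that 98.9% of calls were rises against 48.0% after scaling. A small fall therefore depends on the scaling, and each list below is read beside the all-gene median. Its counts are read beside the 15.9% of all genes that rose and the 17.3% that fell. List medians and counts include genes not well above background in a group, whose differences rest on dim signals. By the labels 3 HA and 2 delneo arrays shared the first slide and 1 HA and 2 delneo arrays the second, where 9 and 512 genes were called. The lone HA array of the second slide is assumed to vary like the other groups. Leaving out HA replicate 2, HA replicate 3 or delneo replicate 3 gave 5923, 5883 and 6832 calls. Of 206 called genes named in the text, 144 kept their call in all 8 fits that left out 1 array, and all 206 kept their direction in them. Within the first slide all 206 kept their direction and 4 kept their call, and within the second 205 kept their direction. With slide by file name as a block all 206 kept their direction and 79 their call. These genes were chosen by their calls on the same arrays, so a kept direction is no independent support.

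The 12 largest rises, leaving out names that are only identifiers such as Riken or Gm names, lay between 3.72 and 5.11. Atf3, a transcription factor induced by cell stress, read 7.05, 7.68, 6.46 and 7.72 on the HA arrays, against 3.22, 2.33, 1.69 and 1.2 on the delneo arrays. It was not well above background on any delneo array, so its rise was at least 14.1-fold (difference 5.11 ± 0.45 SE, adjusted p = 2.08e-05). "At least" folds set the HA mean against the dimmest signal marked on each delneo array or the gene's own, whichever was higher. Ubd, an interferon-inducible ubiquitin-like modifier, read 5.96, 7.20, 9.78 and 8.08 in HA livers, against 3.84, 2.48, 2.04 and 4.02 in delneo livers. HA livers were above every delneo liver for both genes, and Ubd varied more among the HA livers than Atf3.

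Slpi, a secreted inhibitor of leukocyte proteases, read 7.78, 7.99, 8.75 and 6.72 in HA livers, against 3.05, 4.55, 3.36 and 2.15 in delneo livers. Ly6d, a membrane-anchored protein of the Ly6 family, read 9.71, 10.75, 10.46 and 11.20 in HA livers, against 6.41, 5.96, 6.10 and 6.17 in delneo livers. For both genes every HA liver lay above every delneo liver. Osbpl3, an oxysterol-binding protein relative, rose at least 6.45-fold, Rragd, a Rag GTPase of nutrient signalling to mTORC1, at least 5.07-fold, Lysmd2 at least 11.6-fold and Gipc2, a PDZ-domain protein, at least 13.4-fold. Lysmd2 spread from 5.09 to 9.80 among HA livers and Gipc2 from 4.38 to 8.47. Fndc10 rose by 3.77 ± 0.41, and was well above background on 4 HA arrays and 1 delneo array. Ubd and Slpi were so on 4 HA and 2 delneo arrays. Calml4 rose by 4.45 ± 0.42 on its brightest probe, which was well above background on 4 HA and 3 delneo arrays, while its 4 probes gave differences between -0.20 and 4.82.

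**Figure D1:**
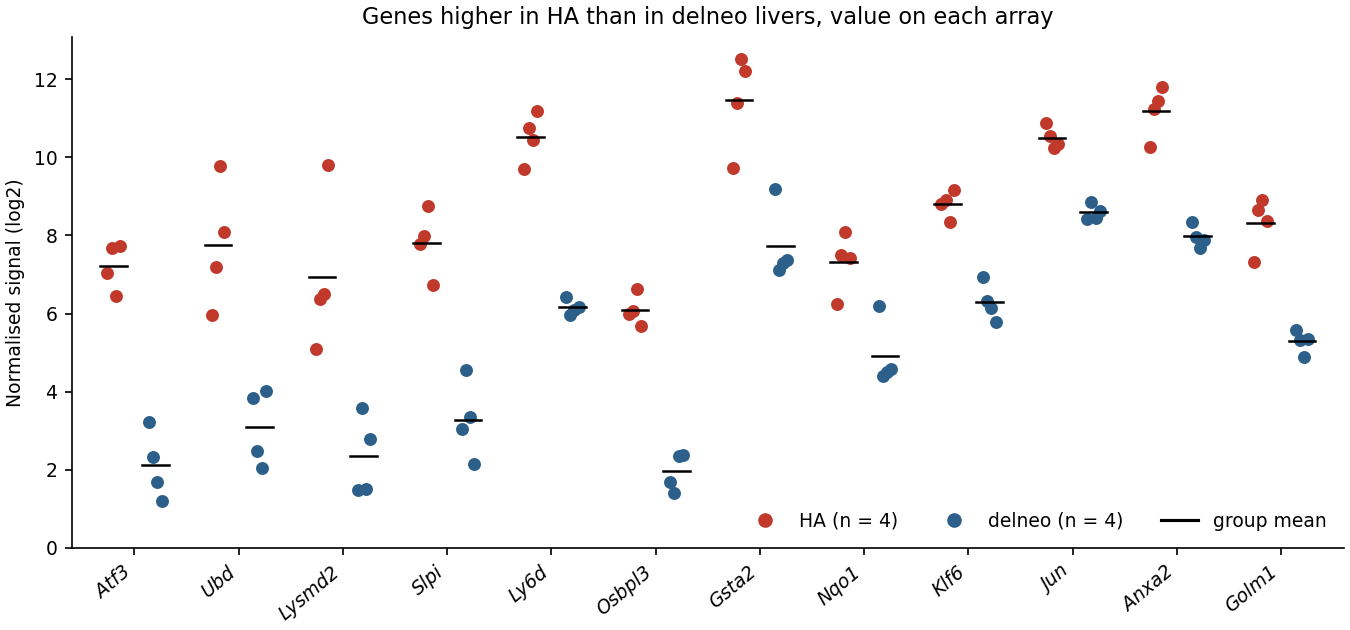
Normalised signal (log2, vertical axis) of 12 genes on each of the 4 HA arrays (red) and 4 delneo arrays (blue), with the group mean as a black bar. All HA arrays lie above all delneo arrays for each gene shown; for Gsta2 and Nqo1 1 delneo array, replicate 1, lies close to the lowest HA array.

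Of the 12 largest falls, chosen with the same names left out, 5 were in the list of genes that male liver expresses more than female liver. Of 20 male-biased genes tested, 15 fell and 0 rose, with a median difference of -1.79 beside -0.14 over all genes. The mean of the list was 9.28, 8.70, 7.29 and 9.72 on the HA arrays, against 9.23, 11.63, 11.5 and 11.43 on the delneo arrays. The mean on delneo replicate 1 thus lay among those of the HA livers. For 12 of the 15 genes that fell, its value was below the highest HA array. Without delneo replicate 1, 15 genes fell and the median was -2.16. Against WT livers, 3166 genes (10.1%) were called in HA livers, 2230 (7.08%) higher and 936 (2.97%) lower. The male-biased list averaged 11.51, 11.56, 10.91 and 11.62 on the WT arrays, and 13 of its 20 genes fell in HA livers against WT, with a median of -2.21.

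Serpina4-ps1, a serpin pseudogene, read 6.07, 4.69, 2.75 and 6.55 in HA livers, against 6.71, 12.93, 13.84 and 13.00 in delneo livers. It fell by 6.61 ± 1.26 SE (adjusted p = 0.00297), and the difference was -8.24 without delneo replicate 1. Elovl3, a fatty acid elongase, read 5.98, 4.67, 2.37 and 8.30 in HA livers, against 5.98, 12.25, 12.08 and 10.62 in delneo livers. Its groups overlapped only through delneo replicate 1, and its difference of -4.90 became -6.32 without that array. Hsd3b5 read 6.25, 4.52, 5.43 and 5.78 in HA livers, against 6.09, 11.76, 11.78 and 11.27 in delneo livers, a difference of -4.73 with all arrays and -6.11 without delneo replicate 1.

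Mup3, a major urinary protein that carries pheromones into urine, read 9.53, 9.02, 5.06 and 11.07 in HA livers, against 12.52, 14.55, 14.21 and 14.36 in delneo livers. Its groups did not overlap, and HA replicate 3 was the lowest of the 8 livers. Mup14 read 13.07, 10.06, 5.81 and 13.65 in HA livers, against 12.69, 15.18, 15.06 and 15.03 in delneo livers, and its call was lost in the fits without HA replicate 2 or without delneo replicate 2, 3 or 4, with differences of -3.66 to -3.61. Mup5 differed by -3.71 and lost its call without HA replicate 2 or delneo replicate 3, at -3.49 and -3.56. The Mup genes are near-identical copies whose probes may bind each other's transcripts, so their separate levels are uncertain.

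Slco1a1 and Slco1a6, organic anion transporters, differed by -3.87 and -3.32. Slco1a1 was well above background on 3 HA arrays and Slco1a6 on 2. Slco1a1 read 8.37, 6.49, 2.07 and 8.22 in HA livers, against 8.36, 10.87, 10.77 and 10.62 in delneo livers. Cyp7b1, an oxysterol hydroxylase of bile acid synthesis, read 7.17, 6.99, 7.24 and 7.34 in HA livers, against 6.87, 10.53, 11.09 and 10.80 in delneo livers. Its difference was -2.64, and -3.62 without delneo replicate 1, which was the lowest of the 8. Sult5a1, a sulfotransferase, and Serpina12, which encodes the adipokine vaspin, differed by -3.38 and -3.86, and by -4.26 and -4.68 without that array. Hsd3b4 was not well above background in HA livers and fell at least 3.42-fold. Snora30, a small nucleolar RNA, fell by 3.87 ± 0.73. Without delneo replicate 1 the differences of Mup3 and Slco1a1 were -5.70 and -4.47. Serpina4-ps1, Elovl3 and Mup5 were well above background on 3 HA arrays each.

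Of 18 female-biased genes, 6 rose, 0 fell and the median was 1.12, and without delneo replicate 1 10 rose with a median of 1.64. Cyp3a16 read 11.16, 11.03, 11.24 and 10.73 in HA livers, against 10.62, 9.32, 8.81 and 9.17 in delneo livers, and delneo replicate 1 was the delneo liver nearest to HA. Cyp3a44 and Cyp3a41a differed by 1.55 and 1.54, but the probes of this pair share a run of 26 bases and may not report separate genes. Rtn4, an endoplasmic reticulum membrane protein, differed by 2.09 and Prom1, which is also a progenitor cell marker, by 2.33. Without delneo replicate 1 the differences were 1.94 for Cyp3a16, 1.92 for Cyp3a44, 1.91 for Cyp3a41a, 2.31 for Rtn4 and 2.71 for Prom1. Cyp2b13 read 8.53, 8.21, 7.30 and 4.83 in HA livers, against 8.33, 1.24, 1.25 and 1.29 in delneo livers, and its call (4.19, adjusted p = 0.0408) was lost in 6 of the 8 fits that left out 1 array, with differences of 3.60 to 4.16. It was well above background on 4 HA arrays and on 1 delneo array, replicate 1.

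**Figure D2:**
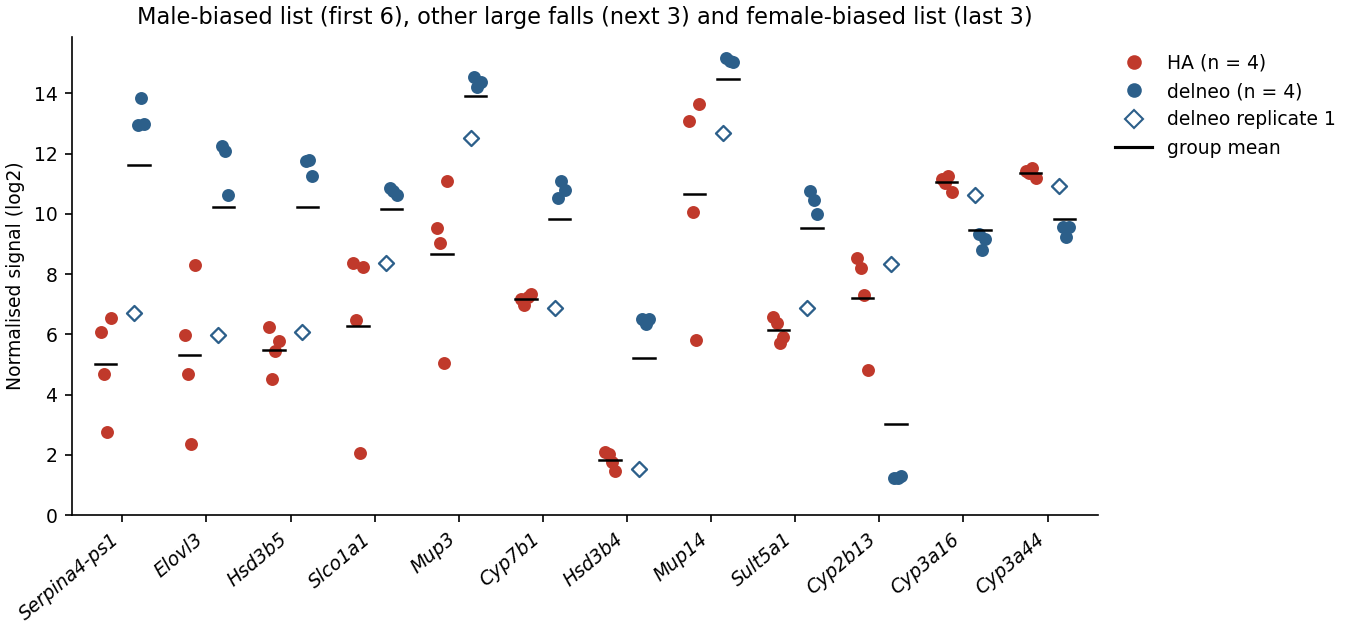
Normalised signal (log2, vertical axis) of 6 genes of the male-biased list, 3 other genes among the largest falls and 3 genes of the female-biased list on the 4 HA arrays (red) and 4 delneo arrays (blue), with delneo replicate 1 as an open diamond and group means as black bars. Delneo replicate 1 is the delneo array nearest to the HA arrays in each gene.

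Genes of de novo ceramide synthesis were mostly higher in HA livers: of 13 tested, 8 rose and 3 fell, with a median of 0.81. Sptlc2, a catalytic subunit of serine palmitoyltransferase, the entry step of the pathway, read 6.98, 7.36, 7.36 and 7.41 in HA livers, against 5.93, 6.03, 5.67 and 5.58 in delneo livers. Its rise of 1.47 ± 0.20 (adjusted p = 0.000483) was larger than the spread within either group. Sptssa, the small activating subunit of the same enzyme, rose by 1.03 ± 0.15 and Sptlc1, its other large subunit, by 0.73, although the 3 probes of Sptlc1 gave -0.25 to 0.73. Sptlc3, the alternative catalytic subunit, fell by 0.38, a call lost in 5 of the 8 fits that left out 1 array and turned to 0.25 without scaling.

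Kdsr, the ketoreductase of the second step, read 7.03, 7.45, 7.48 and 7.16 in HA livers, against 6.16, 5.76, 5.86 and 5.93 in delneo livers. Degs1, the desaturase that completes ceramide, read 9.31, 9.39, 9.91 and 9.32 in HA livers, against 8.19, 8.07, 8.03 and 8.41 in delneo livers. The groups did not overlap for either gene, and they rose by 1.35 ± 0.21 and 1.31 ± 0.22. Ormdl1, which encodes an inhibitor of serine palmitoyltransferase, rose by 1.05. The same 13 genes set against WT gave 6 rises and 2 falls with a median of 0.55. Those comparisons share the HA arrays, so the second is no independent repeat of the first.

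The other ceramide synthases moved in both directions. Cers6, which prefers palmitoyl chains, read 6.08, 5.89, 6.00 and 5.75 in HA livers, against 5.55, 4.29, 4.31 and 5.28 in delneo livers, and rose by 1.07 ± 0.26 (adjusted p = 0.00885). Cers5, which shares that preference, read 5.30, 5.33, 6.08 and 5.47 in HA livers, against 4.6, 5.07, 4.66 and 4.6 in delneo livers. Its rise of 0.81 was lost without HA replicate 3, at 0.64. Cers4, which prefers longer chains, read 8.30, 8.37, 8.19 and 8.40 in HA livers, against 8.66, 8.66, 8.85 and 9.07 in delneo livers, and Cers1, best known from neurons, 7.90, 7.97, 7.64 and 7.77 against 8.36, 8.21, 8.28 and 8.21. Their falls of 0.49 and 0.45 turned to 0.08 and 0.11 without scaling, and were lost in 6 fits (-0.52 to -0.41) and without HA replicate 3 (-0.39). Cers3 was not tested.

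**Figure D3:**
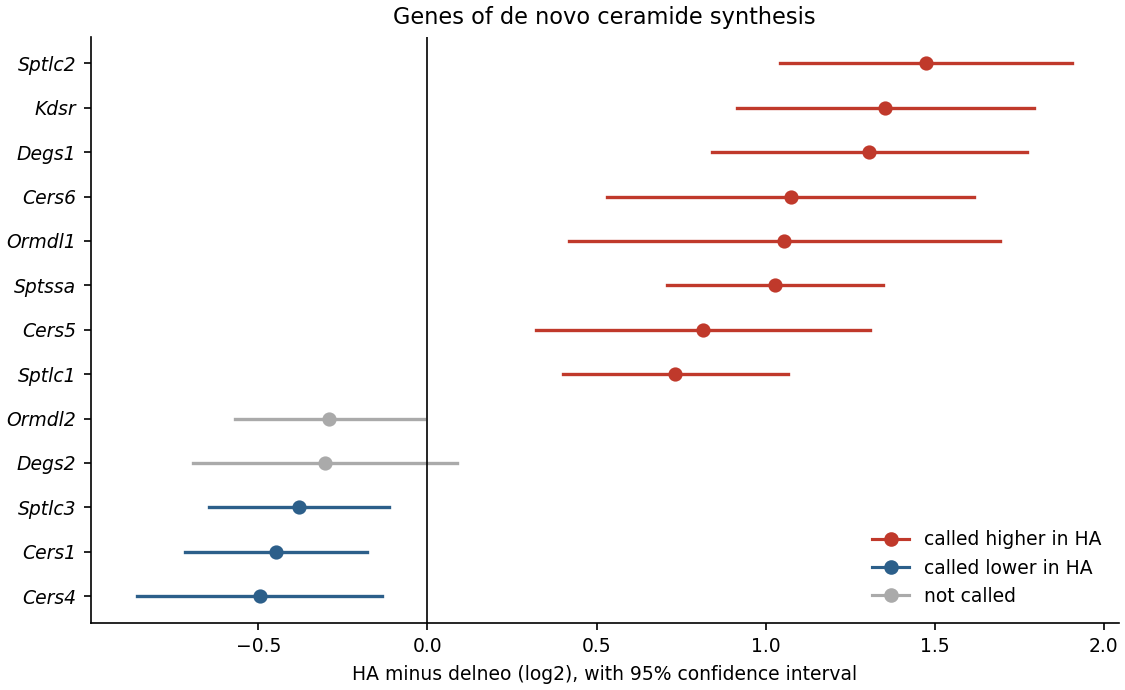
Difference HA minus delneo (log2, horizontal axis) with its 95% confidence interval for the 13 tested genes of de novo ceramide synthesis (rows). The 8 genes called higher lie between 0.73 and 1.47 and the 3 called lower between -0.49 and -0.38.

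Genes of ceramide use and transport rose in part, and none fell against delneo. Of 12 genes of ceramide breakdown and sphingosine phosphate, 4 rose, with a median of 0.28. Against WT 1 of the 12 rose and 1 fell, beside 7.08% and 2.97% of all genes. Cerk, ceramide kinase, read 7.26, 7.55, 7.96 and 7.56 in HA livers, against 6.41, 6.52, 6.64 and 6.52 in delneo livers, a rise of 1.06 ± 0.16. Asah1, lysosomal acid ceramidase, rose by 1.25, S1pr2, a sphingosine phosphate receptor, by 1.32, and Asah2, neutral ceramidase, by 0.39, the last lost in 5 of the 8 fits that left out 1 array. Asah1, S1pr2 and Asah2 did not pass against WT. Of 16 genes of sphingomyelin and glycosphingolipid metabolism 8 rose, with a median of 0.37, and against WT 4 rose and 0 fell. Arsa, the lysosomal sulfatase of sulfatides, read 10.15, 10.43, 10.24 and 10.11 in HA livers, against 9.02, 9.35, 9.18 and 9.15 in delneo livers. Gltp, a glycolipid transfer protein, rose by 1.34, Smpdl3a, a phosphodiesterase of the sphingomyelinase family, by 1.06, and Cert1, which carries ceramide from the endoplasmic reticulum to the Golgi, by 0.78.

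Of 21 cholesterol synthesis genes 9 rose and 1 fell, with a median of 0.57. Idi1, the isomerase of isopentenyl diphosphate, read 10.45, 11.07, 10.99 and 10.98 in HA livers, against 9.78, 9.72, 9.88 and 9.53 in delneo livers. Idi1 rose by 1.15, Msmo1 by 0.98 and Cyp51 by 0.93, and no HA liver was within the delneo range for any of them. The gene that fell was Srebf2, the pathway's transcription factor, by 0.61, a call lost without HA replicate 3 (-0.57) and turned to 0.03 without scaling. Against WT 1 of the 21 rose and 0 fell, with a median of 0.29, and Idi1 differed from WT by 0.55, Msmo1 by 0.48 and Cyp51 by 0.28, none of which passed. Those 3 genes did not pass between the delneo and WT groups either.

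Lipid uptake and storage genes rose for 10 of 22 and fell for 2, with a median of 0.31. Lpl, lipoprotein lipase, which adult hepatocytes hardly make, read 10.65, 10.13, 10.02 and 10.89 in HA livers, against 8.94, 8.63, 8.20 and 8.05 in delneo livers. Cd36, a fatty acid receptor, rose by 1.16 on its brightest probe, with its 6 probes between -0.73 and 2.02. Plin3, a lipid droplet coat protein, rose by 1.25 and Lipa, lysosomal acid lipase, by 1.01. Lipc, hepatic lipase, and Fitm1 fell by 0.52 and 0.60, calls lost in 3 and 4 of the 8 fits that left out 1 array. Of 22 fatty acid oxidation genes 5 rose and 0 fell (median 0.29), beside 15.9% and 17.3% of all genes. Cpt1a, the mitochondrial entry step, rose by 0.92, Acadm by 0.79, Etfdh by 0.86, Crat by 1.1 and Acaa1a by 0.39. The calls of Crat and Acaa1a were lost in 2 and 7 of those fits, and the mean of the probes of Acaa1a was -0.01.

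In fatty acid and triglyceride synthesis 4 of 17 rose and 3 fell, beside 15.9% and 17.3% of all genes. Scd2, a stearoyl-CoA desaturase more typical of brain than of adult liver, read 7.65, 8.27, 8.77 and 7.63 in HA livers, against 6.14, 5.95, 5.55 and 5.89 in delneo livers. The desaturases Fads1 and Fads2 rose by 0.82 and 1.03 and Lpin2 by 0.62, while Acacb, mitochondrial acetyl-CoA carboxylase, fell by 1.09, Mlxipl by 0.97 and Thrsp by 1.54. The calls of Lpin2, Mlxipl and Thrsp were lost in 5, 2 and 7 of the 8 fits. Among 19 genes of lipoproteins and sterol export 8 rose and 1 fell. Abcg1, a sterol exporter, read 8.49, 8.66, 9.12 and 8.43 in HA livers, against 7.08, 6.69, 6.37 and 6.47 in delneo livers. Apoa4 rose by 1.70 and Apoc2 by 0.97, and Mttp, which loads lipid onto apolipoprotein B, fell by 0.66 on its brighter probe and differed by 0.59 on the other.

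Of 19 bile acid genes 3 rose (15.9% of all genes did) and 5 fell (17.3% of all genes did), and without scaling 6 were higher and 3 lower. Besides Slco1a1 and Cyp7b1, the uptake transporters Slco1a4 and Slco1b2 fell by 1.25 and 0.77 and the canalicular exporter Abcc2 by 0.49, the last lost in 6 of the 8 fits that left out 1 array. The basolateral exporter subunit Slc51b rose by 2.82 ± 0.57, from a probe well above background on 4 HA arrays and 1 delneo array that read 3.88, 4.61, 5.36 and 5.28 in HA livers and 3.53, 1.39, 1.29 and 1.64 in delneo livers. Abcc4, another basolateral exporter, rose by 1.32 on its brighter probe, with -0.03 on the other, and Abcb4, the phospholipid exporter, by 0.78.

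Genes that NRF2 controls, the factor that answers oxidants and electrophiles, rose for 13 of 18 and fell for 0, with a median of 0.81. Nqo1, a quinone reductase, read 6.24, 7.5, 8.09 and 7.42 in HA livers, against 6.21, 4.41, 4.49 and 4.57 in delneo livers. Hmox1, heme oxygenase, read 8.18, 8.28, 8.65 and 8.37 in HA livers, against 6.73, 6.03, 5.56 and 6.06 in delneo livers. Nqo1 separated the groups only narrowly, since delneo replicate 1 almost reached HA replicate 1, whereas the groups for Hmox1 were 1.45 apart at their nearest. Ugdh, which makes UDP-glucuronate, rose by 1.79 ± 0.27 and Prdx1, a peroxidase, by 1.13 ± 0.18. Against WT 12 of the 18 rose and 0 fell.

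Glutathione transferases rose for 7 of 21 and fell for 1, Mgst1, by 0.49. Gsta1 read 9.95, 11.27, 12.77 and 11.88 in HA livers, against 9.63, 7.40, 7.33 and 7.15 in delneo livers, and Gsta2 9.73, 11.39, 12.52 and 12.20 against 9.18, 7.12, 7.29 and 7.37. In both, HA replicate 1 was the lowest HA liver and delneo replicate 1 the highest delneo liver, and without that delneo array the differences were 4.18 and 4.2. Mgst3 rose by 2.17 and Gstm3 by 1.31. Delneo replicate 1 was also the delneo liver nearest to HA for Mgst3 and Gstm3.

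The antioxidant response element, the motif bound by NRF2, was searched as TGACNNNGC on both strands of the 250 bases before each start site in RefSeq promoters of GRCm38.p6. It occurred for 3 of 11 NRF2-list genes that rose and have a promoter in the table (27.3%), for 1 of 6 glutathione transferases and for 11.5% of all 27025 genes. It also occurred for 6 of 26 mitosis genes that rose and have a promoter (23.1%), and the 11 NRF2-list genes also held TTTGAA in 27.3% and CCAAT in 54.5%. The matches belonged to Prdx1, Txnrd1 and Ugdh. The promoters of Prdx1 and Ugdh are shown because these genes rose and hold the motif, with its letters in capitals, read 5′ to 3′ on the gene's strand. Prdx1 lies at chr4:116685349-116685598 on the plus strand with the reverse complement of the motif, and Ugdh at chr5:65435843-65436092 on the minus strand with 2 matches, 1 on each strand.
Prdx1: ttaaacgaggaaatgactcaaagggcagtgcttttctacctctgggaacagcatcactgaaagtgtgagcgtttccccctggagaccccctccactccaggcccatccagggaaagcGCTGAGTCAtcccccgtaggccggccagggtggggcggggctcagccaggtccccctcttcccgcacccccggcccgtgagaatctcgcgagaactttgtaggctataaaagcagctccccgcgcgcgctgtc
Ugdh: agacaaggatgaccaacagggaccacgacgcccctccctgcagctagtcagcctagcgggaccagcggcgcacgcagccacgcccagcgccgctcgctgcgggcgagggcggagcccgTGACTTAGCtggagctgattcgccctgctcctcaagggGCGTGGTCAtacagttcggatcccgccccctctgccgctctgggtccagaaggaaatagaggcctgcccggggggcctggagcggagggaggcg

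Immediate early factors, transcription factors switched on within minutes of a stimulus, rose for 9 of 15 and fell for 0, with a median of 1.12. Jun, a subunit of AP-1, read 10.87, 10.54, 10.23 and 10.34 in HA livers, against 8.42, 8.87, 8.44 and 8.62 in delneo livers. Klf6, a zinc finger factor, read 8.80, 8.90, 8.34 and 9.16 in HA livers, against 6.94, 6.32, 6.15 and 5.78 in delneo livers. The groups did not overlap for either gene, with rises of 1.91 ± 0.15 (adjusted p = 1.21e-05) and 2.50 ± 0.23 (adjusted p = 2.39e-05). Jund rose by 1.44, and Atf3 belongs to the same list. Against WT the list also had 9 rises and 0 falls.

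Of 20 p53 targets, 11 rose and 1 fell, with a median of 0.70. Of the 20, 16 were well above background on every HA and delneo array, and 3 on no delneo array. Against WT 5 of them rose and 0 fell, beside 7.08% and 2.97% of all genes. Phlda3, an inhibitor of AKT, rose by 2.16, Tnfrsf10b, a death receptor, at least 2.87-fold, Perp by 0.94 and Sesn1 by 0.71. Fas fell by 0.39 on its brighter probe, a call lost in 7 of the 8 fits that left out 1 array (-0.43 to -0.34), and differed by 0.98 on the other. In the unfolded protein and integrated stress response 5 of 20 rose and 1 fell, beside 15.9% and 17.3% of all genes. Against WT 1 of these 20 rose and 1 fell. Trib3 rose by 1.37, Edem1 by 0.63, Pdia4 by 1.00, Dnajb9 by 1.21 and Hsp90b1 by 0.52, and Chac1 fell by 0.74. The calls of Dnajb9 and Hsp90b1 were lost in 4 and 6 of the 8 fits that left out 1 array.

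Markers of fetal liver and liver tumours rose for 12 of 19 and fell for 2, with a median of 1.31. Against WT 9 of the 19 rose and 0 fell, with a median of 0.43. Anxa2, a membrane-binding annexin, read 10.28, 11.23, 11.44 and 11.79 in HA livers, against 8.35, 7.97, 7.69 and 7.90 in delneo livers. Golm1, the Golgi protein GP73, read 7.33, 8.66, 8.90 and 8.37 in HA livers, against 5.58, 5.32, 4.90 and 5.34 in delneo livers. The lowest HA liver was 1.92 above the highest delneo liver for Anxa2 and 1.75 above it for Golm1. Lgals1, galectin 1, rose by 1.83. The genes that fell were Afp, the fetal serum protein, and Igf2, by 0.38 and 0.39, calls lost in 8 and 7 of the 8 fits and turned to 0.21 and 0.19 without scaling.

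Of 45 mitosis genes 33 rose and 4 fell, with a median of 1.40. Of the 45, 24 were well above background on all 4 HA and all 4 delneo arrays, and 6 on no delneo array. Cdca3, a trigger of mitotic entry, read 7.99, 8.35, 7.27 and 8.96 in HA livers, against 5.78, 6.75, 5.27 and 4.91 in delneo livers. Aurkb, the kinase of the chromosomal passenger complex, was not well above background in delneo livers and rose at least 2.16-fold, and Nusap1, a spindle protein, at least 2.02-fold. Cdca5, sororin of sister chromatid cohesion, rose by 2.07 and was well above background on 4 HA arrays and 1 delneo array. Kif2c, Kif11, Prc1 and Cenpf fell by 0.60, 0.49, 0.46 and 0.43. Of these the calls of Kif11, Prc1 and Cenpf were lost in 5, 6 and 6 of the 8 fits, Kif11 and Cenpf turned to 0.05 and 0.13 without scaling, and the 3 probes of Prc1 gave -0.46 to 3.50. Within the first slide the median was 0.83 with 0 calls, and within the second 2.30 with 27 genes higher, where the HA group is 1 array.

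Replication and G1/S genes rose for 24 of 34 and fell for 2, with a median of 1.05. Of the 34, 27 were well above background on every HA and delneo array, and 1 on no delneo array. Uhrf1, which keeps DNA methylation through replication, rose at least 5.73-fold from signals not well above background in delneo livers. Ccnd1, cyclin D1, read 10.53, 9.84, 10.36 and 10.19 in HA livers, against 8.73, 7.92, 8.13 and 7.43 in delneo livers. Mcm4, a helicase subunit, rose by 1.99 and Rrm1, a ribonucleotide reductase subunit, by 1.45. E2f7 and Cdc6 fell by 0.52 and 0.55, the call of Cdc6 being lost in 3 of the 8 fits. Against WT 34 mitosis genes rose and 0 fell, and 20 replication genes rose and 0 fell.

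The CCAAT box, which NF-Y binds, occurred on either strand of the same 250 bases for 19 of 26 mitosis genes that rose and have a promoter in the table (73.1%), and for 37.5% of all genes. The cell cycle homology region, searched as TTTGAA on both strands, occurred for 8 of the 26 (30.8%) and for 18.3% of all genes. The promoter of Cdca3 at chr6:124829926-124830175 on the plus strand is shown as an example, with its 2 CCAAT boxes, 1 on each strand, in capitals.
Cdca3: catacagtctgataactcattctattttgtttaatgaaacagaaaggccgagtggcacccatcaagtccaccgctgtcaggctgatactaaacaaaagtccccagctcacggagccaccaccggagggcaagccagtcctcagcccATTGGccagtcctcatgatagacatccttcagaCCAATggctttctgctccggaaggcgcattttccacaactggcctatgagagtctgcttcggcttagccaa

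Most macrophage markers were higher in HA livers: of 17 tested, 12 rose and 1 fell, with a median of 1.34. Cd5l, secreted by Kupffer cells, read 10.18, 9.91, 10.79 and 10.16 in HA livers, against 8.79, 8.33, 8.13 and 8.10 in delneo livers. C1qb, a complement subunit, read 10.19, 10.73, 11.41 and 10.70 in HA livers, against 9.76, 9.07, 8.96 and 8.99 in delneo livers. Lyz2, lysozyme, rose by 1.78 and Vsig4, a complement receptor of Kupffer cells, by 1.34. C1qc fell by 0.56, against the direction of its partners. Csf1r, Trem2, Itgax and Timd4 did not rise. Without delneo replicate 1 their differences were -0.62, -0.35, -0.31 and -0.18. In whole liver a change in the number of cells of a type and a change in RNA per cell cannot be told apart.

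Interferon-induced genes rose for 17 of 24 and fell for 1, with a median of 0.99, and 12 rose when delneo replicate 1 was left out. Cxcl10, a chemokine for T cells, read 6.37, 5.54, 5.98 and 6.81 in HA livers, against 4.12, 3.43, 2.29 and 1.57 in delneo livers, well above background on 1 of the delneo arrays. Usp18, which removes the ubiquitin-like ISG15, rose by 1.40 and Oasl2 by 1.31. Oasl1 fell by 0.52 on its brighter probe and differed by 0.99 on the other. Chemokine and cytokine genes rose for 11 of 23 and fell for 4. Ccl6 read 6.91, 7.24, 8.71 and 7.94 in HA livers, against 4.96, 4.90, 4.94 and 4.63 in delneo livers, Ccl9 rose by 1.76 and Tnfaip3, a brake on NF-kappaB, by 1.31. Cxcl13, Ccl7, Tgfb1 and Il10 fell by 0.70, 0.33, 0.47 and 0.51, and all but Cxcl13 lost their call in 4 or 5 of the 8 fits.

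Stellate cell and fibroblast genes rose for 4 of 14 and fell for 1, beside 15.9% and 17.3% of all genes. Against WT 2 of the 14 rose and 0 fell, beside 7.08% and 2.97% of all genes. Timp1, an inhibitor of matrix metalloproteases, rose at least 5.47-fold, Lum, a collagen-binding proteoglycan, by 1.95, Rgs5, a pericyte marker, by 1.05 and Dcn by 0.55, while Reln fell by 0.52, a call lost without HA replicate 2 or delneo replicate 3 (-0.50 and -0.48). The mean of the 14 was 7.76 to 8.0 on HA arrays and 7.05 to 7.34 on delneo arrays. S100a8, S100a9 and Ltf rose by 1.91, 1.26 and 0.65 among 10 neutrophil markers and Csf3r fell by 0.46, with the calls of S100a9, Ltf and Csf3r lost in 3, 2 and 5 of the 8 fits. Gzma rose at least 3.62-fold and Cd4 fell by 0.44 among 11 lymphocyte markers, the call of Cd4 being lost in 4 fits, and Sox9 rose by 1.08 among 9 cholangiocyte markers. The means of the 11 lymphocyte markers were 5.60 to 5.80 on HA arrays and 5.51 to 5.78 on delneo arrays.

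Among 12 sinusoidal endothelial markers Mrc1 and Cdh5 rose by 0.54 and 0.58 and Stab1 and Oit3 fell by 0.52 and 0.44, each call lost in at least 3 of the 8 fits. Of 13 hepatocyte markers Cyp3a11, a cytochrome P450, rose by 1.67, with 15.09, 15.26, 15.26 and 15.37 in HA livers against 14.33, 13.27, 13.35 and 13.37 in delneo livers, and Hpd fell by 0.80, a call lost in 7 fits. The globins Hbb-bt and Hba-a2 rose by 2.18 and 1.09 and Alas2 and Epb42 fell by 1.95 and 0.47 among 7 erythroid markers. Hba-a2 and Epb42 lost their calls in 4 fits each, and Alas2 lost its call without HA replicate 3 (-1.41). Cela2a fell by 0.56 among 10 acinar markers and Cidec rose by 0.64 among 6 adipocyte markers, with calls lost in 1 and 3 fits. The part of these cell types in the other results was not tested.

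**Figure D4:**
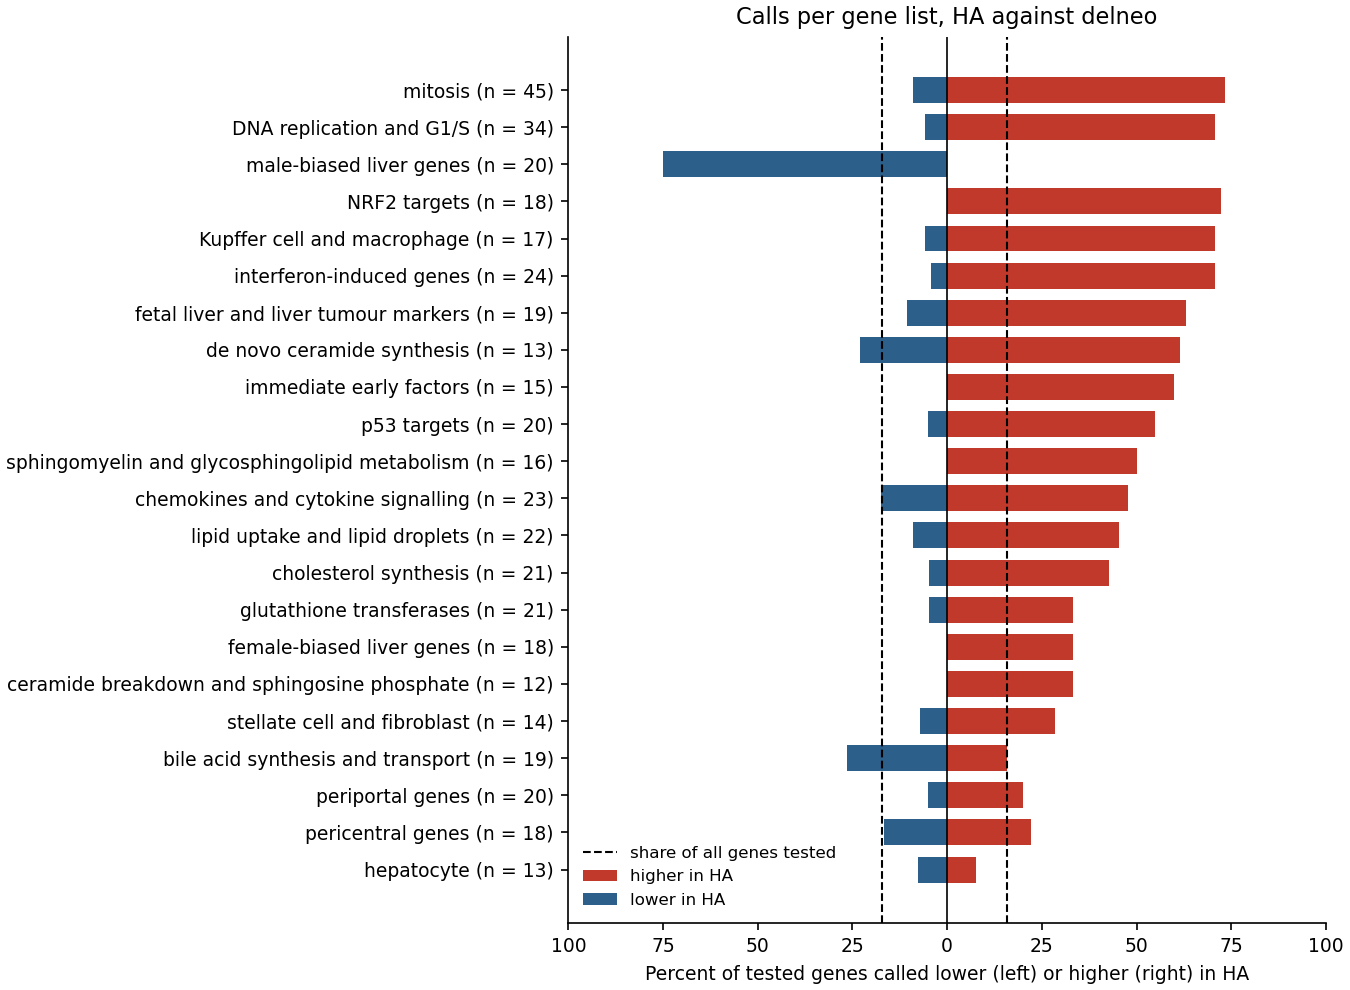
Percent of tested genes of each list (rows, number tested in brackets) called higher in HA (red, right) or lower in HA (blue, left), with dashed lines at the shares over all genes tested, 15.9% higher and 17.3% lower. Mitosis, replication, NRF2, macrophage and interferon lists reach furthest to the right, male-biased genes furthest to the left, and hepatocyte markers lie inside both lines.

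Few genes were called between the control lines themselves. Between delneo and WT livers 7 of 31480 genes (0.0222%) were called, 1 higher (0.00318%) and 6 lower (0.0191%) in delneo, and 1827 had an unadjusted p under 0.05. For these 7 genes the HA difference depended, by the test of the delneo minus WT difference, on which control was used. For the other genes the lack of a call does not show that the controls were alike. With the same HA arrays 10458 genes were called against delneo and 3166 against WT. All 5 of the 7 that have a symbol lie on chromosome 3, as does Cers2, and chromosome 3 holds 844 of the 17662 genes with a symbol (4.78%). Fits that left out 1 delneo or WT array called 3 to 6 genes between the control groups. Selenbp1 and Selenbp2 kept their call in all 8 of them, while Asic5, Hsd3b3 and Hsd3b6 lost theirs in 6, 6 and 7, at 1.28 to 1.59, -1.75 to -1.47 and -1.76 to -1.45. In a limma fit of the delneo and WT arrays alone, none of the 5 was called (adjusted p from 0.0607 for Selenbp2 to 0.219 for Asic5).

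Selenbp1, a selenium-binding protein of liver cytosol, read 10.30, 10.53, 10.64 and 10.28 in HA livers, 9.88, 9.87, 9.56 and 9.96 in delneo livers and 12.19, 12.24, 11.09 and 12.18 in WT livers. HA and delneo were thus both below WT, by 1.49 and 2.11 (adjusted p = 0.00115 and 0.00119), while HA was above delneo by 0.62 (adjusted p = 0.048), a call lost in every fit that left out 1 array (0.53 to 0.67). Its relative Selenbp2 read 11.52, 11.75, 11.90 and 11.55 in HA livers, 11.30, 11.25, 10.97 and 11.31 in delneo livers and 13.38, 13.33, 12.45 and 13.33 in WT livers. It differed by 0.47 between HA and delneo, which did not pass, by -1.44 between HA and WT and by -1.91 between delneo and WT. Their probes share a run of at most 6 bases. In the order of annotated genes Selenbp1 and Selenbp2 lie 30 and 40 genes before Cers2.

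Hsd3b3 and Hsd3b6, hydroxysteroid dehydrogenases 172 and 173 genes beyond Cers2, followed the same order. Hsd3b3 read 11.02, 10.64, 10.08 and 10.89 in HA livers, 9.76, 10.59, 9.98 and 10.56 in delneo livers and 11.65, 11.89, 11.86 and 12.01 in WT livers. Its differences were 0.43 for HA minus delneo, which did not pass, -1.19 for HA minus WT and -1.63 for delneo minus WT, and its dimmer probe gave -0.41 for the first. Hsd3b6 gave 0.36, -1.26 and -1.62 for the same differences. Asic5, an ion channel gene further away on the chromosome, ran the other way with 6.87, 7.09, 6.45 and 7.06 in HA livers, 7.83, 8.13, 8.38 and 8.01 in delneo livers and 6.30, 7.24, 6.64 and 6.56 in WT livers. It fell by 1.22 against delneo (adjusted p = 0.00131) and differed by 0.18 from WT.

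**Figure D5:**
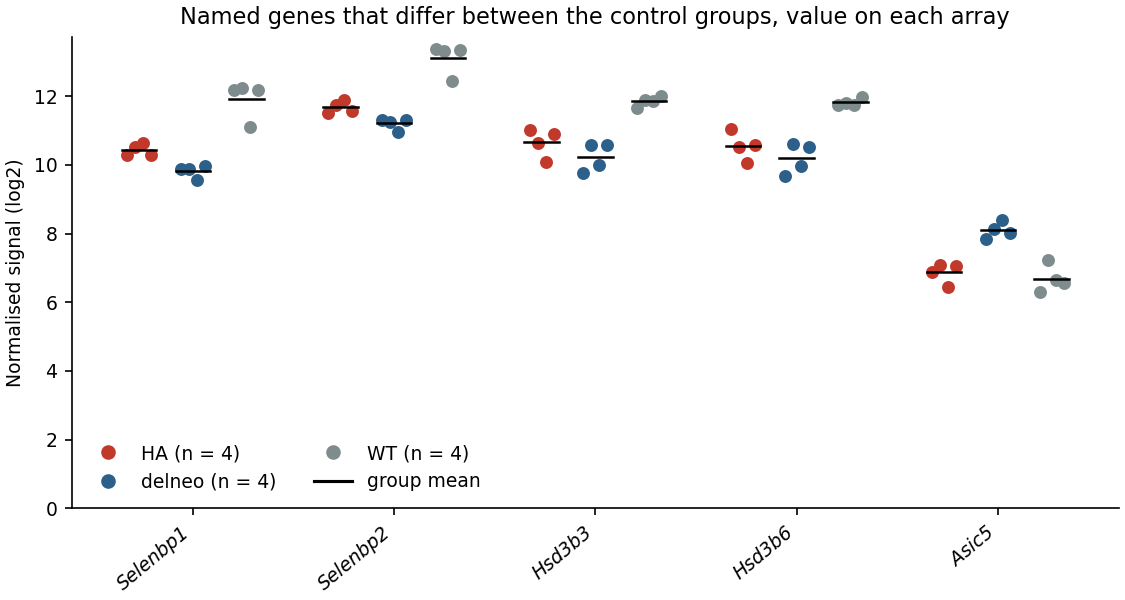
Normalised signal (log2, vertical axis) of the 5 named genes called between the control groups, on 4 HA (red), 4 delneo (blue) and 4 WT arrays (grey), with group means as black bars. For Selenbp1, Selenbp2, Hsd3b3 and Hsd3b6 the HA and delneo arrays lie below WT, and for Asic5 the delneo arrays lie above both other groups.

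The genes nearest to Cers2, 20 on either side, bore no call between delneo and WT. Of the 22 tested, 5 rose and 3 fell between HA and delneo, beside 15.9% and 17.3% of all genes, with a median of 0.12. Ctss, the lysosomal protease cathepsin S of antigen-presenting cells, read 7.78, 8.71, 9.33 and 8.87 in HA livers, against 7.26, 6.83, 6.44 and 6.66 in delneo livers. Cdc42se1, a small effector of CDC42, read 7.99, 8.61, 8.70 and 8.49 in HA livers, against 7.16, 7.20, 7.01 and 7.04 in delneo livers. Mcl1, Arnt and Setdb1 rose by 0.52, 0.54 and 0.51. Prune1, Gm128 and Adamtsl4 fell by 0.55, 0.62 and 0.54. Setdb1, Gm128 and Adamtsl4 lost their call in 5, 3 and 2 of the 8 fits that left out 1 array, and Prune1 turned to 0.05 without scaling.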

How the data were processed

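Cy3-labelled liver RNA was hybridised to 1-colour Agilent arrays. Each deposited scanner file holds intensity values from Agilent Feature Extraction, background-subtracted and not scaled between arrays, per the file headers. Per the submitters' processing notes, Agilent Feature Extraction 11 and Partek were used. The deposited value table holds log2 values with the same median, 4.36, in all 16 columns, and is the source of all levels here. Per the file headers, other deposited columns flag spots above background. Labels and scanner file names gave different slides for 6 of 16 samples, among them HA replicate 4 and delneo replicates 1, 2 and 4. Value table columns correlated best with the scanner file that the label points to (r 0.885 to 0.996), so groups follow the labels. The match shows which scan a column holds, and which liver was on that array was not tested.

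Of 60037 probes, 36264 were named through transcript identifiers of GRCm38.p6. No coordinates are given for genes, since the array names another build. Probes flagged above background on 4 or more of the 16 arrays were kept (37814), and the brightest stood for each gene. All 16 arrays were fitted in 1 model with limma 3.58.1 in R 4.3.3, with no replicate block. Array number limits the precision. On simulated data for HA against delneo, 200 of 31480 genes were changed in each run, with independent normal noise. Of changes of 0.5, 1 and 2 log2 units, 9.2%, 62.4% and 92.8% were recovered. Many more genes were called in the real comparison, so these rates may not hold for it. The 39 gene lists, 775 genes of which 666 were tested, and the comparison itself were chosen with earlier results of these data known. Genes named are the 12 largest rises and falls, the ceramide synthases, of each list the 4 called with the smallest p (1 where none was called), called neighbours of Cers2 and the genes that differ between controls. Names that are only identifiers were left out of the largest rises and falls and of the genes that differ between controls. Members of small counts, and Y-linked genes and Xist, were named after their values were seen. Some genes that this rule names are not reported here.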

Additional observations from a re-analysis of the deposited data

Results flagged for a closer look

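Among the 209 genes named here, 33 of 418 groups of 4 arrays (7.9%) held 1 array far from the other 3, where chance gives about 1 in 20. Delneo replicate 1 was that array in 17 of the 33 groups, HA replicate 1 in 7, HA replicate 3 in 5, and delneo replicates 2, 3 and 4 in 1, 1 and 2. Delneo replicate 1 read low for Serpina4-ps1 (6.71), Mup3 (12.52), Hsd3b5 (6.09), Slco1a1 (8.36), Mup14 (12.68), Hsd3b4 (1.54), Cyp7b1 (6.87), Alas2 (9.26) and Edem1 (9.24). It read high for Cyp2b13 (8.33), Gsta2 (9.18), Gsta1 (9.63), Nqo1 (6.21), Slc51b (3.53), Cyp3a11 (14.33), C1qb (9.76) and Aurkb (2.04, not well above background). For the same genes the other 3 delneo livers lay within 1 unit of each other. The listed sex of this mouse is male, as for all others.

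HA replicate 1 read low for Sptlc2 (6.98), Smpdl3a (6.94), Idi1 (10.45), Prdx1 (12.40), Cd4 (7.38) and Arnt (7.64) and high for Mlxipl (12.12). HA replicate 3 read high for Degs1 (9.91), Oasl1 (5.08), C1qc (8.04) and Ltf (5.73) and low for Slco1b2 (12.71). Delneo replicate 2 read high for Cers5 (5.07), delneo replicate 3 low for Selenbp2 (10.97), and delneo replicate 4 low for Ccl6 (4.63) and high for Hpd (12).

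The HA difference depended on the control line, by the test of delneo minus WT, for Selenbp1 (-2.11), Selenbp2 (-1.91), Hsd3b3 (-1.63), Hsd3b6 (-1.62) and Asic5 (1.40).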

How the results depend on the processing

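No paired analysis was possible because replicate numbers follow only the order of deposit. The count of calls between HA and delneo, 10458, was 9690 to 10958 under other scanner values, normexp background, slide by label as a block, moderation and probe means, and 8817 of 47102 without the filter. It was 4 (4 higher, 0 lower) with the scanner files as listed, which mixes samples. Without scaling 10393 were higher and 117 lower, and between delneo and WT 4 were called. With slide by file name as a block, which overlaps with genotype, 794 were called (696 higher, 98 lower). Within slide 1 the calls were 9 (9 higher, 0 lower) and within slide 2 512 (409 higher, 103 lower), and 0 and 0 between delneo and WT, with fewer arrays. Array weights gave 15411 calls, 8746 lower. Fitting only the groups compared gave 2 calls between delneo and WT, none of them among the 5 genes named for that comparison. Leaving out 1 array gave 5883 to 10748 calls (3439 to 5251 higher, 2442 to 5497 lower). Leaving out 1 delneo or WT array gave 3 to 6 between delneo and WT. Chosen after seeing the data, the fit without delneo replicate 1 and HA replicate 4 gave 4594 (2782 higher, 1812 lower).

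Some called genes turned sign. Without scaling Cers1 was 0.11, Cers4 0.08, Prune1 0.05, Sptlc3 0.25, Tecr 0.16, Srebf2 0.03, Lipc 0.03, Abcc2 0.15, Mgst1 0.18, Fas 0.09, Kif11 0.05, Cenpf 0.13, Afp 0.21, Igf2 0.19, Ccl7 0.19, Tgfb1 0.08, Reln 0.14, Cd4 0.12, Csf3r 0.22, Stab1 0.05, Oit3 0.14, Ghr 0.01, Cry2 0, Per1 0.07, Npas2 0.23 and Cyp1a2 0.13. With probe means Fas was 0.30, Prc1 1.36, Oasl1 0.24 and Acaa1a -0.01, with normexp Prc1 was 1.1, and with probes above background on all 16 arrays Calml4 was -0.20. With files as listed Igf2 was 0.01, Oit3 0.05, Dnajb9 -0.21 and Hsp90b1 0, and within slide 2 Fbp1 was 0. The cause was not tested beyond each setting's own construction.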

Other observations

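In fatty acid elongation 3 of 13 rose, Hacd3 by 0.81, Elovl1 by 0.74 and Elovl6 by 0.68, and Elovl3, Tecr and Elovl4 fell by 4.90, 0.40 and 0.60. Of all genes 15.9% rose and 17.3% fell. The call of Elovl6 was lost without HA replicate 2 (0.60) or delneo replicate 3 (0.52), the 3 probes of Elovl1 gave -0.47 to 0.74, and Tecr and Elovl4 lost their calls in 3 and 5 of the 8 fits that left out 1 array. Among 20 acute phase genes Lcn2, an iron-binding lipocalin, read 8.60, 11.11, 12.78 and 11.08 in HA livers, against 8.12, 8.04, 7.77 and 8.45 in delneo livers. Hpx rose by 0.49 and Orm1 fell by 0.88, the call of Orm1 being lost in 3 fits, and the list median was -0.10.

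Igfbp1, a secreted binder of insulin-like growth factors, read 12.78, 12.69, 13.15 and 12.80 in HA livers, against 11.05, 10.38, 9.69 and 9.35 in delneo livers, while Igfbp2 rose by 0.89 and Ghr fell by 0.61 among 13 growth hormone genes, both lost in 6 fits. In glucose metabolism Hk1 and Hk2, hexokinases of tissues other than liver, rose by 0.99 and 1.44, Fbp1 and Pfkl by 0.75 and 0.38, and the liver enzymes G6pc and Pklr fell by 1.23 and 0.71, among 21 tested. The 2 probes of Hk1 gave -0.40 and 0.99, and the calls of Fbp1, Pfkl, G6pc and Pklr were lost in 6, 5, 5 and 3 fits. Clock genes had 3 falls of 14, Cry2 (-0.61), Per1 (-0.58) and Npas2 (-0.32), the last lost in 7 fits. Of 18 pericentral genes Gulo, Rhbg, Slc1a4 and Ahr rose by 0.80, 1.36, 1.77 and 0.82 and Cyp2c29, Slc1a2 and Cyp1a2 fell by 0.96, 0.93 and 0.52, the call of Cyp1a2 being lost in 6 fits. Of 20 periportal genes Cps1, Cdh1, Aldh1b1 and Nags rose by 1.02, 2.17, 1.33 and 0.41, the call of Nags being lost in 5 fits, and G6pc fell. Beside the counts of these lists, 15.9% of all genes rose and 17.3% fell.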
